A study of Mus musculus with 4 samples.

Results

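The HOX genes are the 39 protein-coding genes of the mouse Hoxa, Hoxb, Hoxc and Hoxd clusters, taken from the count table by gene symbol alone (Hoxa, Hoxb, Hoxc or Hoxd followed by a number). All 39 had a row among the 51826 gene identifiers, and they lie on chromosomes 6 (11 Hoxa genes), 11 (10 Hoxb genes), 15 (9 Hoxc genes) and 2 (9 Hoxd genes) of build GRCm38. RNA was sequenced from 4 mouse breast tumours, all labelled C3-T+, of which 2 were Elf5+/- (HET) and 2 Elf5+/+ (WT). Cells were freed by collagenase and hyaluronidase and sorted with antibodies to CD45, CD31 and TER119 to enrich tumour cells. The labels do not expand C3-T and do not state strain, age, the kind of Elf5 allele or the gland each tumour came from. Both HET titles carry 1 number, so both HET tumours may come from a single mouse. P-values then measure the spread between these libraries only.

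HOX genes encode homeodomain transcription factors that give cells their position along the body axis. Within a cluster they stand in the order of their paralogue groups, and in the embryo the genes at the low-numbered end are switched on earlier and further towards the head. Adult tissues keep part of this pattern, and fibroblasts, blood cells and endothelial cells each carry their own. In the mammary gland, mice without Hoxa9, Hoxb9 and Hoxd9 fail to expand their glandular tissue in pregnancy, and Hoxc6 and Hoxc8 are active in the developing gland.

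Library totals lay between 12695132 and 15307939 counts, so a count of 0 allows up to 3 counts, or 0.194 to 0.238 CPM (counts divided by library size, which was scaled by the trimmed mean of M-values, TMM). These floors cover counting error only. Elf5, the targeted gene, stood at 5.36 and 10.6 CPM in HET 1 and HET 2, against 35.5 in WT 1 and 4.68 in the library labelled WT 2, which was thus below both HET libraries. That library also had no count for 44.5% of genes, against 29.9% to 31.3% in the others. Every direction of HET over WT below rests on its label. Epcam, which marks epithelial cells, stood at 765 and 611 CPM in HET 1 and HET 2, against 1036 in WT 1 and 1282 in the library labelled WT 2, so epithelial transcripts were present in all 4 libraries. The 6 epithelial markers summed to 2285 and 2122 CPM in HET 1 and HET 2, against 3512 in WT 1 and 3094 in the library labelled WT 2.

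HOX transcripts were scarce. The 39 genes together had 952 and 1091 counts in HET 1 and HET 2, against 859 in WT 1 and 535 in the library labelled WT 2, which is 0.00653%, 0.00859%, 0.00653% and 0.00349% of those libraries. At least 1 CPM in at least 1 library was reached by 22 genes. The low-count filter of the test across all genes kept 22 as well, a set that holds Hoxb8 and Hoxd9 in place of Hoxb1 and Hoxc10. Of the 17 not tested, 15 stayed under 1 CPM in every library, with at most 15 counts in any of them: Hoxa6, Hoxa11, Hoxa13, Hoxb5, Hoxb13, Hoxc5, Hoxc11, Hoxc12, Hoxc13, Hoxd1, Hoxd3, Hoxd10, Hoxd11, Hoxd12 and Hoxd13. Most genes of paralogue group 10 and above, which pattern the hind end of the trunk, the distal limb and the genital tract, were among these.

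**Figure D1:**
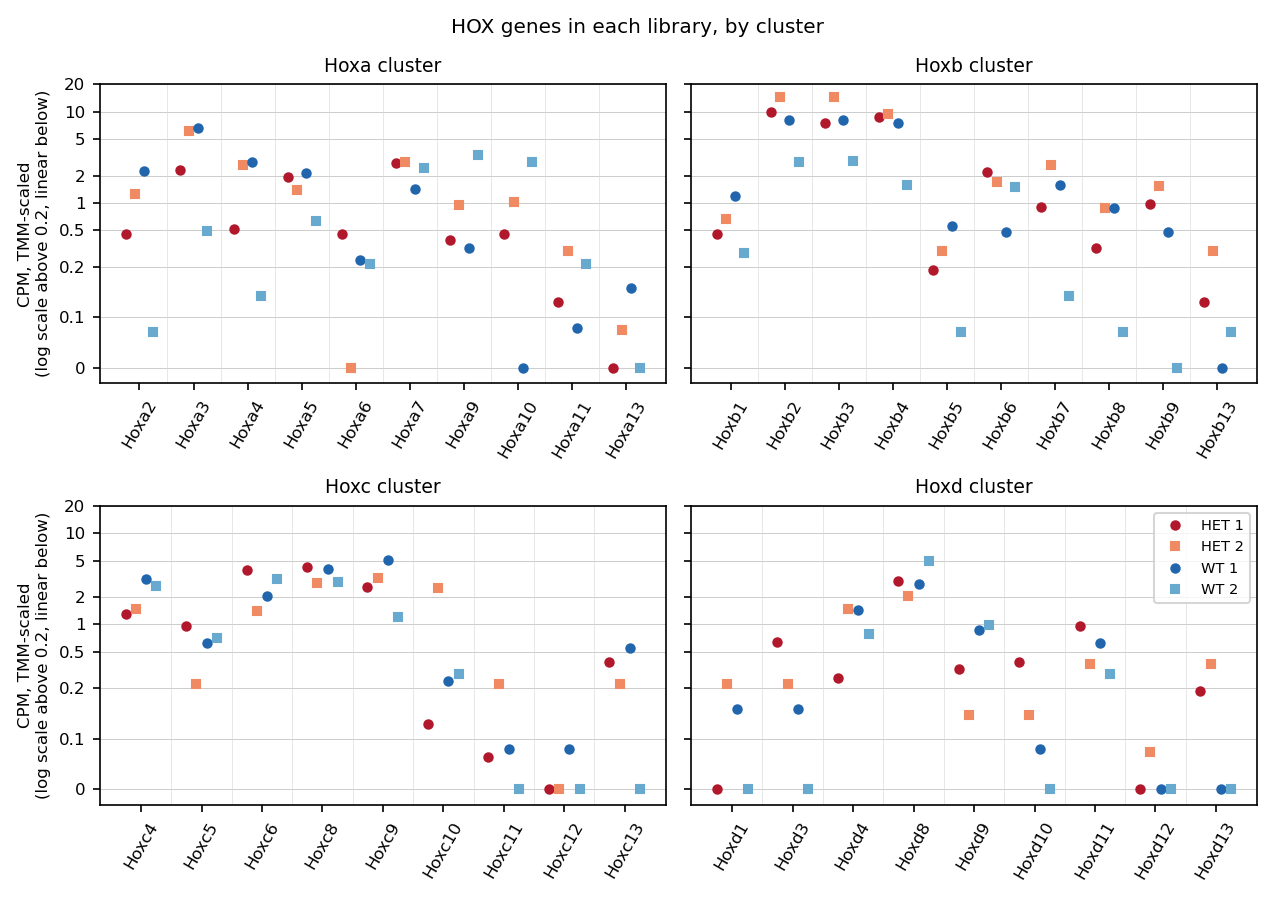
Level of HOX genes (x axis, low to high paralogue group) in HET 1, HET 2, WT 1 and WT 2, in TMM-scaled CPM on an axis that is logarithmic above 0.2 and linear below; each point is 1 library. Hoxb2, Hoxb3 and Hoxb4 are the tallest group, and the library labelled WT 2 lies lowest for them.

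Levels of different genes were compared as CPM per kilobase of exon model. On that scale Hoxb4, Hoxb2 and Hoxb3 led, with means over the 4 libraries of 2.66, 2.53 and 1.96. Hoxb2 and Hoxb3 pattern the hindbrain in the mouse embryo, and Hoxb4 is known for expanding blood stem cells. Hoxc9, Hoxc8, Hoxd8 and Hoxc6 followed at 1.25, 1.24, 1.18 and 1.11 CPM per kilobase. These 7 genes were the only ones with a mean of 1 or more. The order among the 3 Hoxb genes was not the same in every library: HET 2 had 4.13 for Hoxb2 and 3.69 for Hoxb4, while HET 1 had 2.85 and 3.40. In the library labelled WT 2 the highest of the 3 was 0.813, and Hoxd8 (1.84), Hoxc6 (1.33), Hoxc8 (1.03), Hoxc4 (1.02), Hoxa10 (0.868) and Hoxa7 (0.838) stood above them. Exons are shared between neighbours at several of these genes, so their estimated counts depend on how reads were divided. The antisense gene Hoxb3os covers 52.9% of the Hoxb3 exon length and 27.3% of that of Hoxb2. In all, 16 of the 39 share exon sequence with another gene and 10 share it with a gene on the other strand. Whether the libraries kept strand is not given in the sources used here.

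**Figure D2:**
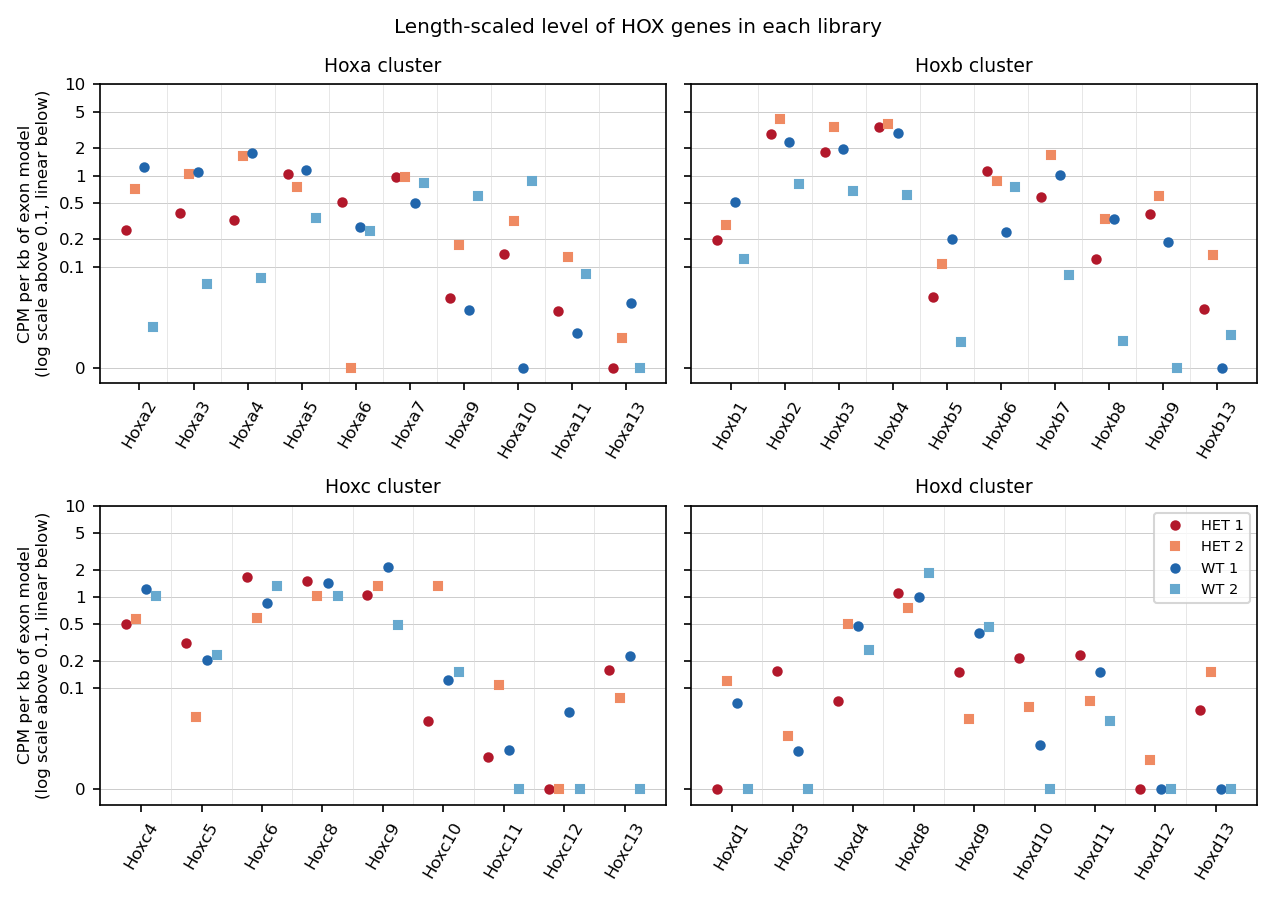
Length-scaled level of HOX genes in the 4 libraries, in CPM per kilobase of exon model on an axis that is logarithmic above 0.1 and linear below; each point is 1 library. Hoxb4, Hoxb2 and Hoxb3 are highest on average (2.66, 2.53 and 1.96).

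Across all genes, edgeR's quasi-likelihood test called 0 of 21607 at a Benjamini-Hochberg adjusted p under 0.05 (0%), and 0 of the 22 tested HOX genes. At an unadjusted p under 0.05 there were also 0 HOX genes in either direction, beside 1.95% of all tested genes higher in HET and 1.83% lower. DESeq2 called 134 of 21607 genes and limma-voom 0, with 996 and 920 at an unadjusted p under 0.05. Neither tool called a HOX gene, and 0 were at an unadjusted p under 0.05. Both HET libraries lay above both WT libraries for 5 of the 22 (Hoxa7, Hoxb2, Hoxb4, Hoxb6 and Hoxb9), which is 22.7% beside 19.6% of all genes tested. Both lay below for 2 (Hoxc4 and Hoxd9), which is 9.09% beside 15.9%. The share of higher genes was near the background. Expressed as HET over WT, the tested HOX genes had a median log2 fold change of 0.16, and all genes tested one of 0.04. Genes with low counts pass the filter more easily where one genotype is high, so these counts describe the tested genes only. Among the 17 not tested, 4 (Hoxb13, Hoxd3, Hoxd10 and Hoxd13) were also higher in both HET libraries, all at 10 counts or fewer. Leaving out WT 1, which leaves the library labelled WT 2 as the only WT library, put 7 HOX genes higher and 2 lower at an unadjusted p under 0.05, beside 4419 of 21607 genes in all. Leaving out the library labelled WT 2 put Hoxa10 higher in HET, but against WT 1 at 0 counts, so no fold is given. Over all 4 libraries the log2 fold change of Hoxa10 was -0.94. Calls over all genes were then 487 higher and 164 lower without WT 1, and 1 higher and 8 lower without the library labelled WT 2, with 0 HOX genes among them.

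**Figure D3:**
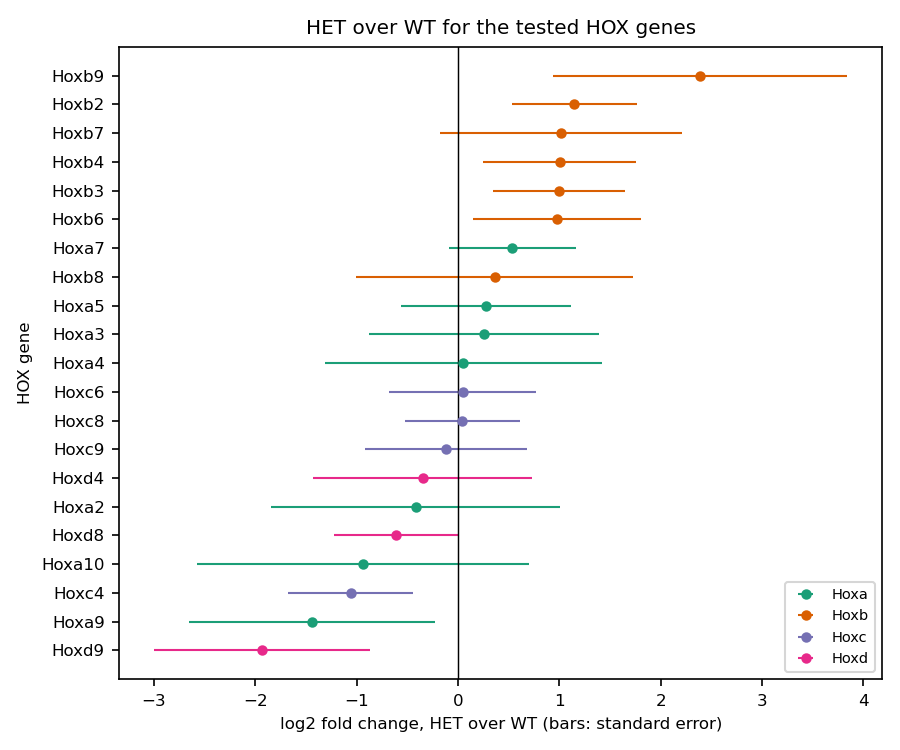
Log2 fold change of HET over WT (x axis) for 21 of the 22 tested HOX genes (y axis, highest at the top), coloured by cluster; points are edgeR estimates and bars are standard errors. All 7 tested Hoxb genes lie above 0 and all 3 tested Hoxd genes below, and none passed the test.

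The Hoxb cluster was the part of the family with the most HET-high values, although none of its genes passed the test. All 7 tested Hoxb genes had a positive log2 fold change, against 5 of 8 Hoxa, 2 of 4 Hoxc and 0 of 3 Hoxd genes. Over all genes tested, 11393 of 21607 were positive. The filter shapes these counts: with no filter beyond 1 count, 8 of 10 Hoxb genes were positive. Of the 7 tested Hoxb genes, Hoxb8 turned to -0.54 without HET 2 and to -0.53 without the library labelled WT 2. Neighbouring HOX genes share regulatory DNA and, in part, transcripts, so they are not independent. The summed Hoxb level was 31.5 and 46.5 CPM in HET 1 and HET 2, against 29.1 in WT 1 and 9.43 in the library labelled WT 2. HET averaged 39.0 ± 10.6 CPM and WT 19.3 ± 13.9 CPM (SD, n = 2 libraries each), a log2 ratio of 1.02. The exact two-sided permutation test gave p = 0.33, the smallest that 2 libraries against 2 allow. HET 1 and WT 1 lay closer to each other than the HET libraries did to each other. Without the library labelled WT 2 the log2 ratio was 0.42, and without WT 1 it was 2.05.

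Hoxb2, with the smallest p of the HOX genes, stood at 9.95 and 14.4 CPM in HET 1 and HET 2, against 8.16 in WT 1 and 2.84 in the library labelled WT 2. Its groups did not overlap, but WT 1 was closer to HET 1 than to the other WT library. The log2 fold change was 1.15 ± 0.61 (SE, n = 2 libraries per genotype; edgeR unadjusted p = 0.110, adjusted p = 0.986). The adjusted p was 0.986 for each of the 8 tested HOX genes of smallest p, which are Hoxb2, Hoxd9, Hoxc4, Hoxb9, Hoxb3, Hoxb4, Hoxa9 and Hoxb6. Without WT 1 the log2 fold change of Hoxb2 was 2.10, and without the library labelled WT 2 it was 0.58. Hoxb3 had 7.63 and 14.6 CPM in HET 1 and HET 2, against 8.24 in WT 1 and 2.91 in the library labelled WT 2, so HET 1 lay inside the WT range (log2 fold change 1.00 ± 0.65, SE; edgeR unadjusted p = 0.176). It was 0.43 without the library labelled WT 2, 0.42 without HET 2 and 1.93 without WT 1. Hoxb4 had 8.73 and 9.46 CPM in HET 1 and HET 2, against 7.53 in WT 1 and 1.56 in the library labelled WT 2 (log2 fold change 1.00 ± 0.76, SE; edgeR unadjusted p = 0.233). HET 1, HET 2 and WT 1 were thus much alike for Hoxb4, and without the library labelled WT 2 its log2 fold change was 0.27 and without WT 1 it was 2.54. The antisense gene Hoxb3os followed the same order of libraries as Hoxb2, at 2.20 and 3.99 CPM in HET 1 and HET 2, against 1.35 in WT 1 and 1.13 in the library labelled WT 2 (log2 fold change 1.31, edgeR unadjusted p = 0.0970).

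Hoxb6 had 2.20 and 1.70 CPM in HET 1 and HET 2, against 0.475 in WT 1 and 1.49 in the library labelled WT 2. It differed from its neighbours in that WT 1, and not the library labelled WT 2, was lowest (log2 fold change 0.98 ± 0.83, SE; edgeR unadjusted p = 0.284). Without WT 1 it was 0.39, and without the library labelled WT 2 it was 2.02. Hoxb9, one of the genes lost together in the mice whose glands fail to expand in pregnancy, had 15 and 21 counts in HET 1 and HET 2, against 6 in WT 1 and 0 in the library labelled WT 2. That is 0.970 and 1.55 CPM in HET, against 0.475 and 0 CPM in WT, and a log2 fold change of 2.39 ± 1.45 (SE; edgeR unadjusted p = 0.150) that rests on very few counts. Without the library labelled WT 2 it was 1.39, and without WT 1 the WT library left has 0 counts, so no fold is given. Hoxb7, a gene studied in human breast cancer, had 0.905 and 2.59 CPM in HET 1 and HET 2, against 1.58 in WT 1 and 0.142 in the library labelled WT 2. Hoxb1, a hindbrain gene that responds to retinoic acid, had 0.452 and 0.665 CPM in HET 1 and HET 2, against 1.19 in WT 1 and 0.284 in the library labelled WT 2. Hoxb8 stayed under 1 CPM and overlapped between genotypes.

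On the TMM scale the other clusters differed in direction, with Hoxd lower in both HET libraries and Hoxa and Hoxc overlapping. Hoxa genes summed to 10.5 and 16.8 CPM in HET 1 and HET 2, against 16.9 in WT 1 and 10.5 in the library labelled WT 2. Hoxc genes summed to 13.7 and 12.2 CPM in HET 1 and HET 2, against 16 in WT 1 and 10.9 in the library labelled WT 2. Both sums overlapped between genotypes (exact two-sided permutation p = 1). Hoxd genes summed to 5.82 and 5.10 CPM in HET 1 and HET 2, against 6.10 in WT 1 and 7.09 in the library labelled WT 2. The Hoxd log2 ratio of HET over WT was -0.27 (exact two-sided permutation p = 0.33), and it was -0.16 without the library labelled WT 2. With CPM of total counts, without TMM scaling, it was -0.09 and the Hoxd sums overlapped between genotypes.

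**Figure D4:**
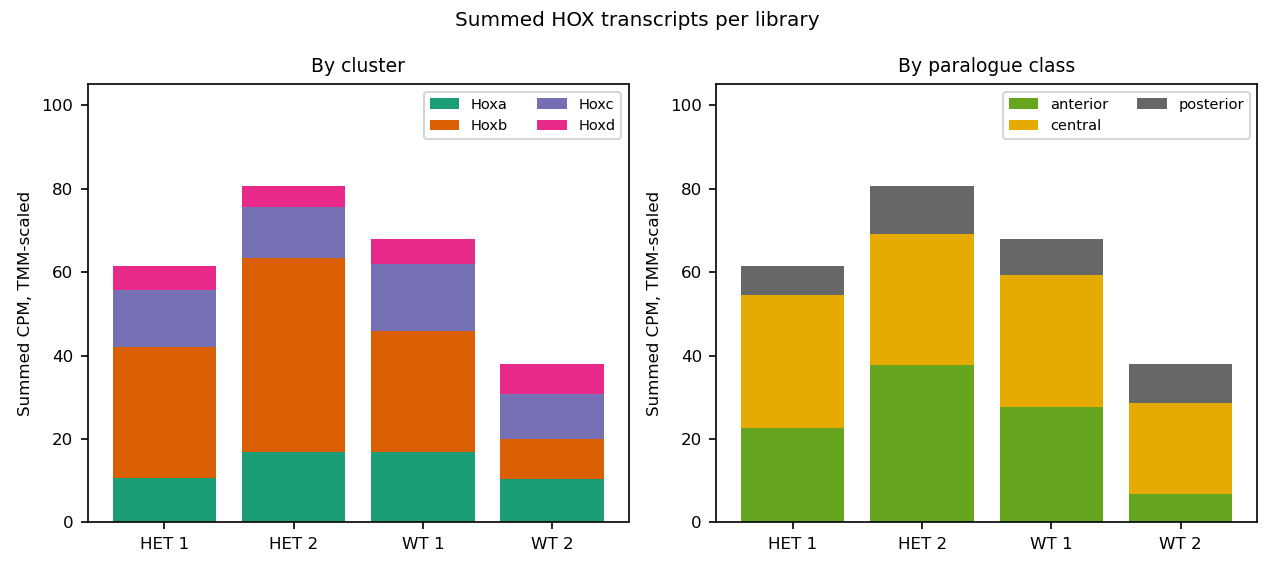
Summed TMM-scaled CPM (y axis) of all 39 HOX genes in each library (x axis), stacked by cluster on the left and by paralogue class on the right (anterior, groups 1 to 3; central, 4 to 8; posterior, 9 to 13). The bars total 61.5 and 80.6 in HET 1 and HET 2, against 68.0 in WT 1 and 37.9 in WT 2; most of the gap between WT 1 and WT 2 is Hoxb and anterior.

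Hoxc4 and Hoxd9 were the 2 tested genes lower in both HET libraries. Hoxc4, which in mouse B cells drives the gene of the antibody-mutating enzyme AID, had 1.29 and 1.48 CPM in HET 1 and HET 2, against 3.17 in WT 1 and 2.62 in the library labelled WT 2. Each group was tight, and the log2 fold change was -1.06 ± 0.62 (SE; edgeR unadjusted p = 0.138, adjusted p = 0.986). Hoxd9, also among the group 9 genes of the mammary gland, had 5 and 2 counts in HET 1 and HET 2, against 11 in WT 1 and 14 in the library labelled WT 2 (0.323 and 0.148 CPM in HET, against 0.871 and 0.993 CPM in WT). Its log2 fold change was -1.93 ± 1.06 (SE; edgeR unadjusted p = 0.118, adjusted p = 0.986). Among group 9 genes, Hoxb9 was higher and Hoxd9 lower in both HET libraries, while Hoxa9 and Hoxc9 overlapped. Hoxb9 and Hoxd9 had 21 counts or fewer in every library. Genes this low pass the filter more easily where one genotype is high, so no conclusion on the direction of group 9 is drawn. Hoxc9 had 2.59 and 3.25 CPM in HET 1 and HET 2, against 5.15 in WT 1 and 1.21 in the library labelled WT 2.

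RefSeq on GRCm38.p6 gave promoter windows, 250 bases upstream of an annotated start, for 22 of the 39 genes (24 windows). They are shown for the DNA at the starts of genes described here. Of the 8 tested genes of smallest p, 4 had one, and these are printed 5′ to 3′ on the gene's strand, with CpG dinucleotides in capitals: Hoxb4 (chr11:96318017-96318266, plus strand), Hoxc4 (chr15:103034145-103034394, plus strand), Hoxd9 (chr2:74697513-74697762, plus strand) and Hoxa9 (chr6:52227371-52227620, minus strand).
Hoxb4: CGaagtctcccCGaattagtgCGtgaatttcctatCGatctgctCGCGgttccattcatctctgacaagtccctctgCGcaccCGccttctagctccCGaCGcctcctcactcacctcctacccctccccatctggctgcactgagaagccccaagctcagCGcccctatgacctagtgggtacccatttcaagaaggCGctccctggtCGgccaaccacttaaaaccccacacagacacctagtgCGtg
Hoxc4: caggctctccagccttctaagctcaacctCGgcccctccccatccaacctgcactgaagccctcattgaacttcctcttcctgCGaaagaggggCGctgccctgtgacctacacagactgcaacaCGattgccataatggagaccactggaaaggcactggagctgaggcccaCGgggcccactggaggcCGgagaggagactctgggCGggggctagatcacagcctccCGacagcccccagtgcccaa
Hoxd9: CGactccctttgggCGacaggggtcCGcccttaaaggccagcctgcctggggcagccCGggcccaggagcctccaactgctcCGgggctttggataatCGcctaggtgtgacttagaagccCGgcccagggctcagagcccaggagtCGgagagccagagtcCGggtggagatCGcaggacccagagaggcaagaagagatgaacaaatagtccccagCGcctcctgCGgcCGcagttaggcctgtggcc
Hoxa9: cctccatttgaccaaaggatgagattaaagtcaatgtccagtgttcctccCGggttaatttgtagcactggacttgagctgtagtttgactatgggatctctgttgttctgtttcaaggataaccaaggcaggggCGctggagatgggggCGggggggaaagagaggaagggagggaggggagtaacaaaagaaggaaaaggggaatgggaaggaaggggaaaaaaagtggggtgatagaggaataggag

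The Hoxa9 and Hoxc4 windows lie inside the longer GENCODE gene models, since RefSeq starts these transcripts further in. Hoxb4 held 14 CpG, Hoxd9 13, Hoxc4 8 and Hoxa9 3. The 24 HOX windows held between 2 and 35, with a median of 12.5, against a median of 6 over 32851 promoter windows of the same length. A PBX-HOX motif, searched as TGATNNAT on both strands, was found in 4 of the 24 windows (16.7%), against 7.68% of all windows. A TATA box, searched as TATAAA on both strands, was likewise found in 4 of 24 (16.7%), against 12.4% of all windows. Neither motif was found in any of the 4 windows shown. Windows holding each motif were counted separately.

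In the library labelled WT 2 the HOX genes had another composition. Hoxb made up 51.2% and 57.7% of HOX counts in HET 1 and HET 2, against 42.7% in WT 1 and 24.9% in the library labelled WT 2 (95% Clopper-Pearson interval of the last, 21.3% to 28.8%, counting error only). Anterior genes made up 36.7% and 46.9% in HET 1 and HET 2, against 40.5% in WT 1 and 17.8% in the library labelled WT 2. Posterior genes made up 11.6% and 14.3% in HET, against 12.8% in WT 1 and 24.3% in that library. Of the 22 tested HOX genes it was the lowest of the 4 libraries for 12 and the highest for 4. These shares were not counted over all genes tested, so they are not read as particular to HOX genes. The library labelled WT 2 had no count for 44.5% of all genes, more than any other library.

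Within the Hoxa cluster, Hoxa2 to Hoxa5 were lowest and Hoxa9 and Hoxa10 highest in that library, while Hoxa11 and Hoxa13 had 4 counts or fewer everywhere. Hoxa2 to Hoxa5, grouped after their values were seen, summed to 5.24 and 11.5 CPM in HET 1 and HET 2, against 13.9 in WT 1 and 1.35 in the library labelled WT 2. Hoxa9 and Hoxa10, also grouped after their values were seen, summed to 0.840 and 2.00 CPM in HET 1 and HET 2, against 0.317 in WT 1 and 6.17 in the library labelled WT 2. The genotypes overlapped for both groups, and the widest gap was between the libraries of WT. Hoxa3, which the embryo needs for the thymus, had 36 and 84 counts in HET 1 and HET 2, against 84 in WT 1 and 7 in the library labelled WT 2. Hoxa4 had 8 and 35 counts in HET 1 and HET 2, against 36 in WT 1 and 2 in the library labelled WT 2. HET 2 and WT 1 were close to each other for both genes, and HET 1 lay between them and the library labelled WT 2.

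Hoxa2, which patterns the second pharyngeal arch, had 0.452 and 1.26 CPM in HET 1 and HET 2, against 2.22 in WT 1 and 0.0709 in the library labelled WT 2. Hoxa5, which can activate the p53 gene in human breast cells, had 1.94 and 1.40 CPM in HET 1 and HET 2, against 2.14 in WT 1 and 0.638 in the library labelled WT 2. Hoxa7, in the middle of the cluster, had neither pattern, with 2.78 and 2.81 CPM in HET 1 and HET 2, against 1.43 in WT 1 and 2.41 in the library labelled WT 2 (log2 fold change 0.54 ± 0.63, SE). Without the library labelled WT 2 it was 0.97, and without WT 1 it was 0.21. Hoxa9, a partner of Meis1 in leukaemia, had 6 and 13 counts in HET 1 and HET 2, against 4 in WT 1 and 47 in the library labelled WT 2 (log2 fold change -1.44 ± 1.22, SE; edgeR unadjusted p = 0.281). Hoxa10, needed in the uterus, had 7 and 14 counts in HET 1 and HET 2, against 0 in WT 1 and 40 in the library labelled WT 2. Without that library the log2 fold change of Hoxa9 turned to 1.06. For Hoxa10 the WT library left then has 0 counts, so no fold is given.

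The other tested Hoxc and Hoxd genes overlapped between genotypes. Hoxc8, which marks the developing mammary line, had 4.27 and 2.88 CPM in HET 1 and HET 2, against 4.04 in WT 1 and 2.91 in the library labelled WT 2. Hoxc6 had 4.01 and 1.40 CPM in HET 1 and HET 2, against 2.06 in WT 1 and 3.19 in the library labelled WT 2. Neither genotype was above the other, with log2 fold changes of 0.04 ± 0.57 for Hoxc8 and 0.05 ± 0.73 for Hoxc6 (SE). Hoxd8 had 3.04 and 2.07 CPM in HET 1 and HET 2, against 2.77 in WT 1 and 5.04 in the library labelled WT 2. Hoxd4 had 0.259 and 1.48 CPM in HET 1 and HET 2, against 1.43 in WT 1 and 0.780 in the library labelled WT 2.

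Hoxc10, a gene of lumbar motor neurons, was high in HET 2 alone. It had 2 and 34 counts in HET 1 and HET 2, against 3 in WT 1 and 4 in the library labelled WT 2. Hotair, a noncoding gene of the same cluster, had 0 and 13 counts in HET 1 and HET 2, against 3 in WT 1 and 0 in the library labelled WT 2. Neither passed the low-count filter, and both were singled out after their values were seen. Hoxc10 shares 8.7% of its exon length with Hoxc5, which was lowest in HET 2 (3 counts).

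Leukocyte, endothelial and fibroblast marker sums also had their lowest or highest value in the library labelled WT 2. Leukocyte markers (10 genes, among them Ptprc) summed to 754 and 540 CPM in HET 1 and HET 2, against 745 in WT 1 and 33.3 in the library labelled WT 2. Ptprc, which encodes the CD45 used in the sort, stood at 73.1 and 65.8 CPM in HET, against 61.9 in WT 1 and 2.84 in that library. Pecam1, which encodes CD31, stood at 127 and 271 CPM in HET 1 and HET 2, against 220 in WT 1 and 55.3 in the library labelled WT 2. Endothelial markers (5 genes) summed to 269 and 481 CPM in HET 1 and HET 2, against 335 in WT 1 and 66.4 in the library labelled WT 2. Hoxb2 to Hoxb4 together stood at 26.3 and 38.5 CPM in HET 1 and HET 2, against 23.9 in WT 1 and 7.30 in the library labelled WT 2, so they and both marker sums were lowest in the same library. Among the other libraries the order differed, with HET 2 highest for Hoxb2 to Hoxb4 but lowest for leukocyte markers. WT 1 was the lowest of these for Hoxb2 to Hoxb4, and HET 1 for endothelial markers. All 9 tested leukocyte and all 5 tested endothelial markers had positive log2 fold changes, with medians of 0.90 and 1.19, and 1, Cd3e, had an unadjusted p under 0.05. Over all genes tested, 11393 of 21607 were positive, and 1.95% were higher at that threshold. Both HET libraries lay above both WT libraries for 4 leukocyte and 3 endothelial markers (44.4% and 60%, beside 19.6% of all genes). Without the library labelled WT 2, 4 of 9 leukocyte and 4 of 5 endothelial markers were positive, with medians of -0.075 and 0.63.

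Fibroblast markers (8 genes, among them Col1a1 and Pdgfra) went the other way, at 3932 and 4914 CPM in HET 1 and HET 2, against 6528 in WT 1 and 21700 in the library labelled WT 2, where Hoxa9 and Hoxa10 were highest. Hoxa9 and Hoxa10 were lowest in WT 1, where the fibroblast sum was above both HET libraries. All 8 fibroblast markers had negative log2 fold changes, and 3 (Col1a1, Col1a2 and Col3a1) had an unadjusted p under 0.05. Over all genes tested, 10214 of 21607 were negative, and 1.83% were lower at that threshold. Both HET libraries lay below both WT libraries for 5 of these 8 markers (62.5%, beside 15.9% of all genes). The fibroblast median was -0.98, and -0.20 without the library labelled WT 2, with all 8 still negative. No marker of these 3 lists was at 0 in any library except Cd79a in WT 1. Erythroid markers (5 genes) summed to 5.37 and 15 CPM in HET, against 5.31 in WT 1 and 1.63 in the library labelled WT 2, and adipocyte markers (4 genes) to 72.0 and 90.5 CPM in HET, against 45.2 in WT 1 and 10.1 in the library labelled WT 2. In these last lists Hba-a2, Hbb-bs and Cidec were at 0 in at least 1 library. The part of these cells in the HOX values was not tested. In such mixed samples fewer cells of a type and less RNA per cell cannot be told apart.

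**Figure D5:**
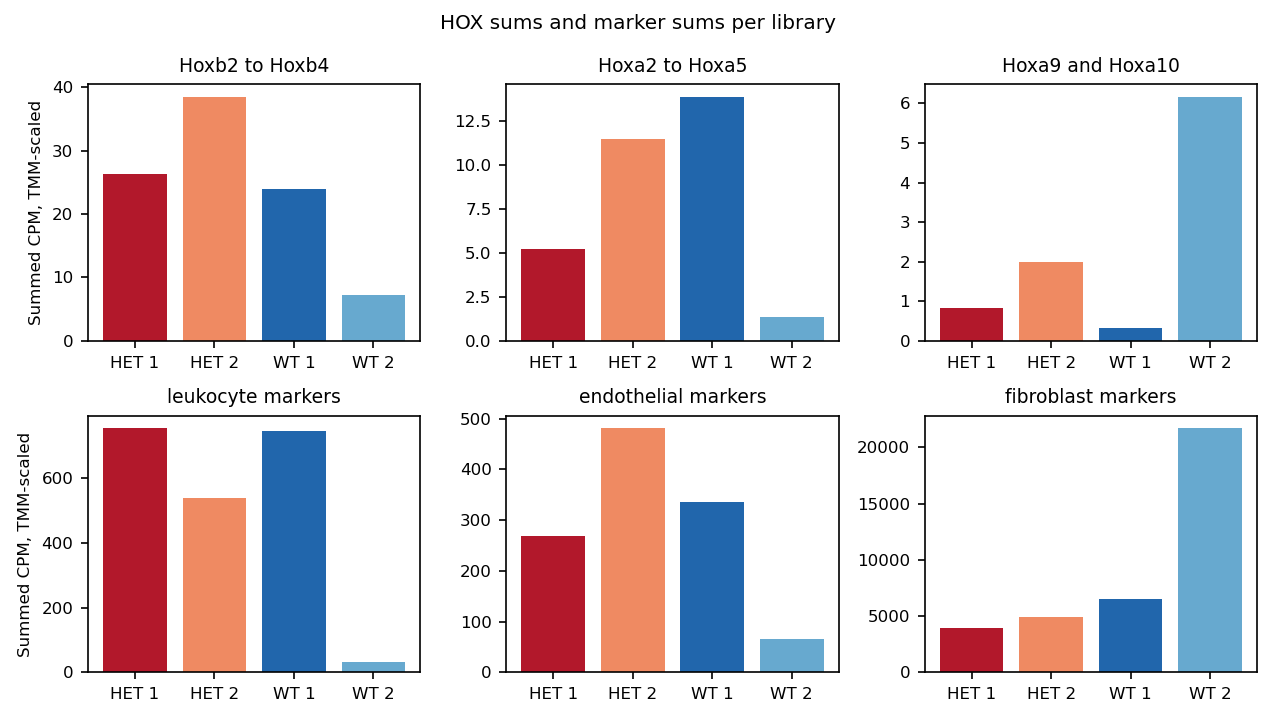
Summed TMM-scaled CPM (y axes, each from 0) per library (x axes) for 3 groups of neighbouring HOX genes, above, and for 3 marker lists of other cell types, below. WT 2 is lowest for Hoxb2 to Hoxb4 (7.30), Hoxa2 to Hoxa5 (1.35), leukocyte and endothelial markers, and highest for Hoxa9 and Hoxa10 (6.17) and fibroblast markers.

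HOX proteins bind DNA with partners of the TALE class, and none of the genes of these partners passed the test. All 9 TALE genes were tested, with 0 at an unadjusted p under 0.05, 1 higher and 2 lower in both HET libraries (11.1% and 22.2%, beside 19.6% and 15.9% of all genes tested), and a median log2 fold change of -0.29. The median became 0.035 on leaving out the library labelled WT 2, with 6 of 9 positive, against 3 of 9 over all 4 libraries. Pbx2, the member of smallest p, had 13.1 and 16.1 CPM in HET 1 and HET 2, against 29.3 in WT 1 and 22.5 in the library labelled WT 2 (log2 fold change -0.83 ± 0.35, SE; edgeR unadjusted p = 0.0538, adjusted p = 0.986). Pknox2 had 3.62 and 5.47 CPM in HET 1 and HET 2, against 1.58 in WT 1 and 2.91 in the library labelled WT 2 (log2 fold change 1.01), and was the TALE gene higher in both HET libraries. Meis3 overlapped, with a log2 fold change of 0.51.

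Chromatin regulators that hold HOX clusters silent or active did not pass the test either. Of 32 Polycomb and trithorax genes, all tested, 0 had an unadjusted p under 0.05, 4 were higher and 6 lower in both HET libraries (12.5% and 18.8%, beside 19.6% and 15.9% of all genes), and the median log2 fold change was -0.13. Ezh2, the methyltransferase that marks silenced HOX genes, had 124 and 97.8 CPM in HET 1 and HET 2, against 134 in WT 1 and 166 in the library labelled WT 2. Its relative Ezh1 had 41.5 and 42.9 CPM in HET, against 31.9 and 32.6 CPM in WT, and neither passed the test. Rbbp4 and Mtf2, both parts of Polycomb complexes, had log2 fold changes of -0.66 and -0.42.

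Of the factors upstream of HOX clusters, most of them in retinoic acid signalling, 15 genes were tested. In both HET libraries 1 was higher and 6 were lower (6.67% and 40%, beside 19.6% and 15.9% of all genes). At an unadjusted p under 0.05, 0 were higher and 2 lower, beside 1.95% and 1.83% of all genes. The median log2 fold change was -0.43, against 0.04 over all genes tested. Cyp26b1, which breaks retinoic acid down, had 12.0 and 9.09 CPM in HET 1 and HET 2, against 24.6 in WT 1 and 25.7 in the library labelled WT 2 (log2 fold change -1.26 ± 0.35, SE; edgeR unadjusted p = 0.0116, adjusted p = 0.986). Each group was tight and the groups lay well apart. Rarg, a retinoic acid receptor, had 69.4 and 60.1 CPM in HET 1 and HET 2, against 163 in WT 1 and 87.7 in the library labelled WT 2 (edgeR unadjusted p = 0.0451, adjusted p = 0.986). Without WT 1 the log2 fold change of Rarg was -0.44, against -0.95 with all libraries, and that of Cyp26b1 stayed between -1.52 and -1.14 whichever library was left out. Smad3, which carries TGF-beta signals, had a log2 fold change of -0.65, and Rxrg, at 12 counts or fewer, of 2.65. Cdx1, Cdx2 and Cdx4, which switch on posterior HOX genes in the embryo, had 4 counts or fewer in every library.

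Of 19 noncoding genes listed for the clusters, 16 were matched and 4 tested, with 0 at an unadjusted p under 0.05. In both HET libraries 2 (Hoxb3os and Hoxd3os1) were higher and 0 lower (50% and 0%, beside 19.6% and 15.9% of all genes tested). The median log2 fold change was 0.70, but 0.245 without the library labelled WT 2 and -0.185 without HET 2. Hoxd3os1 had 1.49 and 1.03 CPM in HET 1 and HET 2, against 0.317 in WT 1 and 0.851 in the library labelled WT 2, while Hotairm1 (log2 fold change -0.58) and Hoxaas2 (0.31) overlapped. The 6 microRNA genes of the clusters had 0 counts in all libraries, which were not made from small RNA as far as the labels say.

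Genes that flank the clusters were listed to show whether differences extended past them. Of 13 tested, 1 was higher and 4 were lower in both HET libraries (7.69% and 30.8%, beside 19.6% and 15.9% of all genes tested), and 1, Cbx5, had an unadjusted p under 0.05, on the lower side, beside 1.83% of all genes. Cbx5, a heterochromatin protein gene beside Hoxc, had 115 and 118 CPM in HET 1 and HET 2, against 230 in WT 1 and 170 in the library labelled WT 2 (edgeR unadjusted p = 0.0423, adjusted p = 0.986). Skap1, a T cell adaptor gene beside Hoxb, had 1.87 and 3.40 CPM in HET 1 and HET 2, against 1.43 in WT 1 and 0.496 in the library labelled WT 2, with the same order of libraries as Hoxb2. That order was not particular to genes beside Hoxb. The leukocyte marker Cd3e had it too, at 6.79 and 8.57 CPM in HET 1 and HET 2, against 2.85 in WT 1 and 1.06 in the library labelled WT 2. No other leukocyte marker listed had this order. The endothelial markers Tek, Kdr and Cdh5 had it, while Pecam1 and Emcn did not. The cause was not tested. Hnrnpa1 and Calcoco1 had log2 fold changes of -0.67 and -0.41.

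Other homeobox and T-box genes that mark position were set beside the HOX genes, of which 21 of 26 were tested. Both HET libraries were above both WT libraries for 2 and below for 5 (9.52% and 23.8%, beside 19.6% and 15.9% of all genes tested), and 1, Shox2, had an unadjusted p under 0.05, on the lower side, beside 1.83% of all genes. Shox2, a gene of the proximal limb, had 19.3 and 3.40 CPM in HET 1 and HET 2, against 153 in WT 1 and 61 in the library labelled WT 2 (log2 fold change -3.23 ± 0.88, SE; edgeR unadjusted p = 0.0101, adjusted p = 0.986). Its spread within each genotype was wide, but the groups did not overlap. Prrx1, Emx2 and Pax3 had log2 fold changes of -0.96, -1.35 and -1.91, and each was highest in the library labelled WT 2. Without that library they were -0.26 for Prrx1, -0.56 for Emx2 and 0.45 for Pax3. Without WT 1, Pax3 (-2.76) was called at an adjusted p under 0.05. Shox2 stayed between -5.00 and -2.42 whichever library was left out.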

How the data were processed

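The deposited table holds estimated counts per Ensembl gene, as whole numbers, which the authors made, per the submitters' processing notes, with Salmon on GRCm38.p5. Its version, annotation and strand setting were not given in the sources used here. Of 51826 identifiers, 51633 matched GENCODE M21 (GRCm38), which gave symbols, biotypes, coordinates and exon models (the union of a gene's exons). The table held 0 rows naming no gene and 0 columns of other samples. No 2 libraries agreed within sampling noise (chi-square per degree of freedom 35.7 to 91.9), so all 4 were kept. The library labelled WT 2 stood at 62.1, 91.9 and 70 against HET 1, HET 2 and WT 1. WT 1 was nearer to HET 1 and HET 2 (41 and 35.7), and the HET pair stood at 44.3.

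The count test was edgeR 4.0.16 run in R 4.3.3 (filterByExpr, TMM scaling, quasi-likelihood F test), with no term beside genotype. A check on simulated data placed changes only in genes above the level of most HOX genes. Its pass mark applied at less spread between libraries than was seen here. How often the test finds changes in HOX genes was thus not tested. Estimated counts were rounded to whole numbers. The filter left 21607 genes. P-values were adjusted over all of them, and the threshold was 0.05. SE is the absolute log2 fold change over the square root of F. Residual degrees of freedom numbered 2 and prior ones 4.08, and the biological coefficient of variation (common) came to 0.46. Sums of a library are descriptions, since 2 libraries against 2 cannot give an exact permutation p below 0.33.

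HOX genes, companion lists and alternatives were chosen with earlier results of these data known. Genes with 1 CPM in a library are named with values, the 8 tested members of smallest p with a fold change, and up to 4 genes of smallest p per companion list. Elf5 is named to check the labels. Named outside this rule are Hoxb8, Hotair, the Cdx genes, the untested members, single markers of cell types, and the fold changes of Hoxa7, Hoxc6 and Hoxc8. Promoter windows come from RefSeq (GRCm38.p6), and protein sequences were not used here. Single-gene values of 1 HOX gene and 1 companion gene are not reported here, though sums and counts include them. Alternatives were DESeq2 1.42.0, limma-voom (limma 3.58.1), other scalings, filters and library sizes, protein-coding genes alone, and leaving out each library.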

Additional observations from a re-analysis of the deposited data

How the results depend on the processing

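All 7 tested Hoxb genes kept a positive log2 fold change under relative log expression and upper-quartile scaling, DESeq2, limma-voom, protein-coding genes alone, and without HET 1 or WT 1. All 6 tested did with a filter of 1 CPM, 7 of 8 tested with library sizes without other cell types, and 8 of 10 with no filter beyond 1 count. Without HET 2 and without the library labelled WT 2, 6 of 7 did, with Hoxb8 at -0.54 and -0.53. Of the 22 tested HOX genes, 10 kept their direction under every alternative and 12 did not. HOX genes called at an adjusted p under 0.05 stayed at 0 throughout. At an unadjusted p under 0.05, leaving out a library gave 0 to 7 higher (7 without WT 1, 1 without the library labelled WT 2) and 0 to 2 lower. Over all genes, calls were 133 higher and 191 lower with no filter beyond 1 count and 43 and 91 with DESeq2. Leaving out a library gave 0 to 487 higher (487 without WT 1, 1 without the library labelled WT 2) and 0 to 164 lower (164 and 8 in the same order). The lone library is then assumed to vary like the other genotype.

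Summed log2 ratios changed sign for Hoxa with relative log expression (-0.03) and with library sizes without other cell types (-0.001), and lay between -0.43 and 0.38 when a library was left out. Hoxc turned to 0.12 with CPM of total counts (-0.31 to 0.25 without a library), posterior genes to -0.12 without members that share exons (-0.40 to 0.31), and central genes ranged from -0.009 to 0.52. Hoxb stayed positive (0.42 to 2.05) and Hoxd negative (-0.43 to -0.09, the latter with CPM of total counts). Leaving out a library moved the log2 fold change of Hoxa2 between -1.38 and 3.43, Hoxa3 between -0.65 and 3.08, Hoxa4 between -1.52 and 3.36, Hoxa5 between -0.35 and 1.38, Hoxa9 between -2.33 and 1.06, Hoxa10 between -1.93 and 6.37 (fitted against a library at 0 counts, so no bound), Hoxb8 between -0.54 and 2.93, Hoxc6 between -0.97 and 0.53, Hoxc8 between -0.31 and 0.30, Hoxc9 between -0.82 and 1.27, and Hoxd4 between -2.10 and 0.39. Hoxa10, Hoxa2 and Hoxc9 turned to 0.88, 0.77 and 0.24 with limma-voom. Hoxc8 was at -0.04 and Hoxc6 at -0.071 with no filter beyond 1 count, and Hoxc6 was at -0.007 with relative log expression and DESeq2 and -0.09 with limma-voom. Leaving out a library after the results were seen moved Hotairm1 between -3.69 and 0.77, Hoxaas2 between -1.13 and 5.96 (fitted against a library at 0 counts) and Pax3 between -2.76 and 0.45. The cause was not tested. Counts of 0 to 20 limit most HOX genes.
No paired analysis was possible because no number in the titles pairs a HET with a WT tumour.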
